A study of Mus musculus with 3 samples.

Results

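Transcripts of *Spp1*, *Gpnmb*, *Lgals3*, *Cd9*, *Cd63*, *Cd68*, *Rnf128* and *Itgax*, 8 of the 31053 mouse genes counted, were followed through 3 single-cell RNA libraries, in which each transcript is counted by a unique molecular identifier (UMI). The genes were taken from those the study itself read out in these libraries, so measured values were known when they were chosen, and their levels in graft macrophages are not independent evidence about that choice. The study placed human skin under the skin of mice and treated cultured mouse marrow cells with active vitamin D. For these genes the libraries answer which cells carry the transcripts, whether the same cells carry them together, and how their levels differ after vitamin D. *Spp1* encodes osteopontin, a secreted phosphoprotein that binds integrins and CD44. *Gpnmb* encodes a membrane glycoprotein of lysosomes and the cell surface, *Lgals3* a galectin, *Cd9* and *Cd63* tetraspanins, *Cd68* a lysosomal membrane protein, *Rnf128* a ubiquitin ligase of internal membranes and *Itgax* the integrin chain CD11c. The name surface markers therefore covers *Cd9* and *Itgax* more closely than the secreted product of *Spp1* or the product of *Rnf128*.

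The first library, Co-Mac, held C57/BL6 bone marrow cells grown for 7 days with GM-CSF, a growth factor for myeloid cells, and left untreated. In the VD-Mac library the culture had then received 1,25-dihydroxycholecalciferol (VD3) at 1e-06 M for 24 hours. The last library, hSTSG, held the mouse cells of human split-thickness skin grafts taken from 5 mice after 14 days, pooled with antibody tags (hashtags) but without a key from tag to mouse. Each condition had 1 library, so no comparison had replicates, no difference was tested, and all intervals (95%) cover counting error only. The files held 7866 barcodes and 136905324 gene UMIs for Co-Mac, 9794 barcodes and 124731240 UMIs for VD-Mac, and 2644 barcodes and 24472168 UMIs for the graft. After the filters 7257, 8825 and 2144 cells were kept, with medians of 15804, 12089 and 6637.5 UMIs per cell. Levels are CPM, UMIs of the pooled cells scaled to 1e+06 in all, and shares of cells were counted after drawing 2000 UMIs from each cell. Too shallow for that draw were 472 Co-Mac, 1149 VD-Mac and 301 graft cells. Of the kept barcodes, 15 were shared by Co-Mac and VD-Mac, 3 by Co-Mac and the graft and 6 by VD-Mac and the graft.

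All 8 genes were found by Ensembl identifier in the mouse GRCm38 annotation as protein-coding genes. *Spp1* (ENSMUSG00000029304) lies at chr5:104435118-104441050 and *Gpnmb* (ENSMUSG00000029816) at chr6:49036546-49070929, both on the plus strand. *Lgals3* (ENSMUSG00000050335) lies at chr14:47367751-47386160 and *Cd63* (ENSMUSG00000025351) at chr10:128900989-128912822, both on the plus strand. *Cd9* (ENSMUSG00000030342) lies at chr6:125460266-125494791 and *Cd68* (ENSMUSG00000018774) at chr11:69664213-69666153, both on the minus strand. *Rnf128* (ENSMUSG00000031438) lies at chrX:139563316-139673145 and *Itgax* (ENSMUSG00000030789) at chr7:128129547-128150657, both on the plus strand. None of the 8 shares exon sequence with another listed gene.

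The graft was used to ask which cells of the healing tissue carried the 8 transcripts. *Spp1*, *Gpnmb*, *Rnf128* and *Itgax* were each highest in 1 macrophage-like cluster, and *Spp1* was also high in granulocyte-like cells. *Lgals3* and *Cd68* were spread over macrophage-like and monocyte-like cells, *Lgals3* also over unnamed cells and *Cd68* also over granulocyte-like cells. *Cd9* and *Cd63* were high in other cells as well. Classes of cells, among them dendritic cells (DC) and natural killer (NK) cells, were named from marker genes that did not include the 8 members.

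*Spp1*, the osteopontin gene, stood at 5197 CPM (5167 to 5227) in all kept graft cells, and 86.8% of its UMIs came from the 549 macrophage-like cells, a share that also follows the depth of those cells. Those cells fell into graft cluster 1, with 338 cells and a median of 16010.5 UMIs, and graft cluster 3, with 211 cells led by *Cd163* and *Lyve1*. *Spp1* was at 15188 CPM in cluster 1, 6528 in granulocyte-like cells, 930.0 in monocyte-like cells and 883 in cluster 3. It stood at 239.9 CPM in T or NK cells, and the intervals of monocyte-like cells and cluster 3 overlapped. The unnamed graft cluster 5, with 145 cells, had 4005 CPM of *Spp1*, and the 14 mast cell or basophil-like cells had 1343. *Gpnmb*, the lysosomal glycoprotein gene, was at 301.3 CPM (294.2 to 308.5) in the whole graft, and 93.4% of its UMIs came from macrophage-like cells. Its level was 941 CPM in cluster 1, 70.2 in monocyte-like cells, 68.6 in cluster 3, 20.1 in granulocyte-like cells and 7.94 in T or NK cells, with monocyte-like cells and cluster 3 overlapping. *Rnf128*, the ubiquitin ligase gene, had 178 CPM in cluster 1, 16.3 in cluster 3, 11.7 in T or NK cells, 10.5 in granulocyte-like cells and 9.45 in monocyte-like cells, and the intervals of these last 4 overlapped. *Itgax*, the CD11c gene, had 241 CPM in cluster 1, 77.9 in granulocyte-like cells, 52.0 in monocyte-like cells, 20.6 in cluster 3 and 8.47 in T or NK cells. *Gpnmb*, *Spp1* and *Rnf128* also led cluster 1 when its cells were compared with the other graft cells. They had been left out of the genes used for clustering, yet their level there describes that cluster and is not a separate finding.

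*Lgals3*, the galectin gene, was at 5076 CPM in cluster 1, 2899 in monocyte-like cells, 1881 in cluster 3, 776 in granulocyte-like cells and 383 in T or NK cells. *Cd68*, the lysosomal membrane gene, followed with 713 CPM in cluster 1, 503 in cluster 3, 282 in monocyte-like cells, 253 in granulocyte-like cells (intervals overlapping) and 23.3 in T or NK cells. These 2 genes therefore separated macrophage-like clusters from each other less than *Spp1* did. *Cd63*, a tetraspanin gene, was at 1626 CPM in cluster 1, 1137 in cluster 3, 549 in monocyte-like and 436 in granulocyte-like cells. The 144 fibroblast-like cells had 1618 CPM of *Cd63*, within the interval of cluster 1, and the 32 mature DC-like cells had 2075. *Cd9*, the other tetraspanin gene, was at 764 CPM in cluster 1 and 44.8 in cluster 3. It was at 2376 CPM in mast cell or basophil-like cells, 1555 in granulocyte-like cells, 420.2 in endothelial-like cells and 98.2 in monocyte-like cells. In these data *Cd9* and *Cd63* were thus not highest in macrophage-like cells of the graft.

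Shares of cells with a transcript were set beside those in T or NK cells, a class of another kind that is not known to lack these genes. Median depth was 14035 UMIs in the 549 macrophage-like cells and 5552 in the 301 T or NK cells, with 15 and 6 cells too shallow for the draw. *Spp1* was seen in 71.9% of macrophage-like cells and in 19.7% of T or NK cells (92.0% and 42.9% without the draw), and in 61.8% of the 317 granulocyte-like cells deep enough for the draw (62.7% of all 475 without it, median 2259 UMIs), so a *Spp1* UMI alone did not mark a macrophage-like cell. *Gpnmb* was seen in 27.7% of macrophage-like cells and 1.69% of T or NK cells, and 47.5% and 3.65% without the draw. *Cd68* was seen in 61.2% and 3.05%, *Rnf128* in 17.2% and 1.36%, and *Itgax* in 19.5% and 0.678%. *Lgals3* was seen in 92.3% and 23.1%, *Cd63* in 85.4% and 6.10%, and *Cd9* in 39.5% and 5.08%. For each of the 8 genes the macrophage-like share lay above the T or NK share. Whether the T or NK share came from free RNA or from those cells was not tested.

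**Figure D1:**
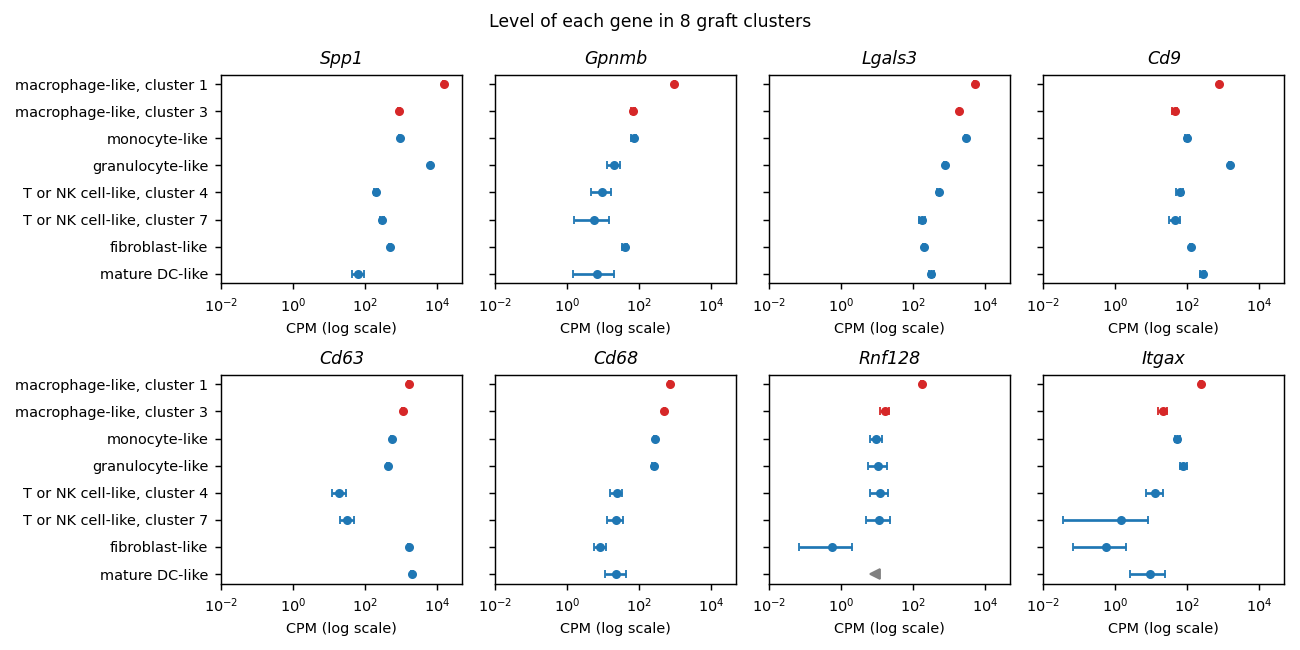
CPM of each of the 8 genes (log axis) in 8 graft clusters, with macrophage-like clusters 1 and 3 in red; points are pooled levels, bars are 95% counting intervals, and the grey triangle is the upper bound for 0 UMIs. *Spp1* is at 15188 CPM in cluster 1 and 883 in cluster 3, while *Cd63* is at 1626 and 1137.

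The same cells were then used to ask whether the 8 genes occurred together in single cells. Within macrophage-like cells the median correlation over the pairs was higher in the graft than in either culture. That difference was not tested, and it did not hold for every pair. In the graft *Spp1* went with *Cd9*, *Gpnmb* and *Lgals3*. In the cultures most pairs had correlations near 0. Each value below is a Pearson correlation over cells of 1 library after the draw to 2000 UMIs, and such cells share a library and are not replicates.

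Over the 28 pairs of members, the median correlation was 0.232 in 534 graft macrophage-like cells, 0.0570 in 1047 Co-Mac cells and 0.0501 in 1181 VD-Mac cells. Pairs above 0.2 numbered 16 in the graft, 1 in Co-Mac and 1 in VD-Mac. Without the draw the medians were 0.377, 0.108 and 0.143, and cells then also differed in depth. *Spp1* in the graft had a correlation of 0.542 with *Cd9*, 0.438 with *Gpnmb*, 0.436 with *Lgals3* and 0.375 with *Itgax*. Its values with *Rnf128*, *Cd63* and *Cd68* were 0.292, 0.143 and 0.135. *Spp1* and *Gpnmb* had 0.0913 in Co-Mac and 0.0692 in VD-Mac, and *Spp1* and *Lgals3* had 0.0903 and −0.142. The closest pair in Co-Mac was *Gpnmb* with *Rnf128* at 0.244, which had 0.126 in VD-Mac and 0.223 in the graft. The closest pair in VD-Mac was *Lgals3* with *Itgax* at 0.229, and it had 0.0970 in Co-Mac and 0.241 in the graft. *Gpnmb* with *Cd63* was at 0.199 in Co-Mac, 0.184 in VD-Mac and 0.285 in the graft. *Cd68* with *Rnf128* gave the lowest value in the graft, −0.0438. Weak values in counts this sparse are not evidence that genes were unrelated. Levels in macrophage-like cells also differed between libraries. *Spp1* was at 10894 CPM in the graft, 785 in Co-Mac and 1114 in VD-Mac, while *Lgals3* was at 4117, 8389 and 7576. How far such levels set the correlations of the libraries apart was not tested.

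Part of the relation in the graft followed the split between its macrophage-like clusters. Within cluster 1 alone (334 cells) the median of the 28 pairs was 0.195 and 14 were above 0.2. There *Spp1* had 0.391 with *Cd9*, 0.366 with *Lgals3*, 0.321 with *Gpnmb* and 0.294 with *Itgax*. Within cluster 3 (200 cells) the median was 0.0984, and *Spp1* with *Cd9* had 0.354. In graft granulocyte-like cells (317) the median was 0.0128 and in monocyte-like cells (292) it was 0.00741, with no pair above 0.2 in either. The granulocyte-like cells of Co-Mac (619) had a median of 0.152 with 6 pairs above 0.2, and those of VD-Mac (729) a median of 0.0236 with none. Mature DC-like cells had medians of 0.00915 in Co-Mac and 0.0279 in VD-Mac. Over all kept cells, where classes are mixed, the medians were 0.142 in Co-Mac, 0.0662 in VD-Mac and 0.252 in the graft.

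Cells with both transcripts were then counted, a share that also follows how often each gene was seen alone. Both *Spp1* and *Gpnmb* were seen in 132 of 534 graft macrophage-like cells (24.7%), 158 of 1047 in Co-Mac (15.1%) and 169 of 1181 in VD-Mac (14.3%). *Gpnmb* was seen in 34.4% of graft cells with *Spp1* and 10.7% of those without, against 30.0% and 23.4% in Co-Mac and 25.9% and 21.8% in VD-Mac. In graft cells with *Spp1* (384) the level of *Gpnmb* was 591 CPM and in cells without (150) it was 76.7, a ratio of 7.71. *Cd9* was at 635 and 157 CPM, *Rnf128* at 177 and 26.7, and *Itgax* at 185 and 36.7, ratios of 4.06, 6.64 and 5.04. *Lgals3* (3824 and 2203 CPM), *Cd63* (1415 and 1167) and *Cd68* (581 and 420.0) differed less between these cells. Of the cells without *Spp1*, 98 were of cluster 3 and 52 of cluster 1, so these ratios also compare clusters. Within cluster 1 *Gpnmb* was at 791 CPM with *Spp1* and 192 without, a ratio of 4.11, and the ratios of *Cd9*, *Rnf128* and *Itgax* were 1.89, 3.00 and 2.75. In Co-Mac *Gpnmb* was at 356 CPM in 526 cells with *Spp1* and 218 in 521 without, and in VD-Mac at 292 in 653 and 212 in 528. *Rnf128* followed *Gpnmb* in the cultures, with 261 CPM in 280 Co-Mac cells that had *Gpnmb* and 103 in 767 that had none. In VD-Mac *Rnf128* was at 29.9 CPM in 284 cells with *Gpnmb* and 7.80 in 897 without. All 8 transcripts were seen in 16 graft macrophage-like cells (3.00%), all of cluster 1, in 6 Co-Mac cells (0.573%) and in 1 VD-Mac cell (0.0847%). Of the 317 graft granulocyte-like cells, 196 had *Spp1* and 5 had *Gpnmb* after the draw, and none had both, a count too small at that depth (median 2259 UMIs before the draw) to show that the 2 genes exclude each other.

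**Figure D2:**
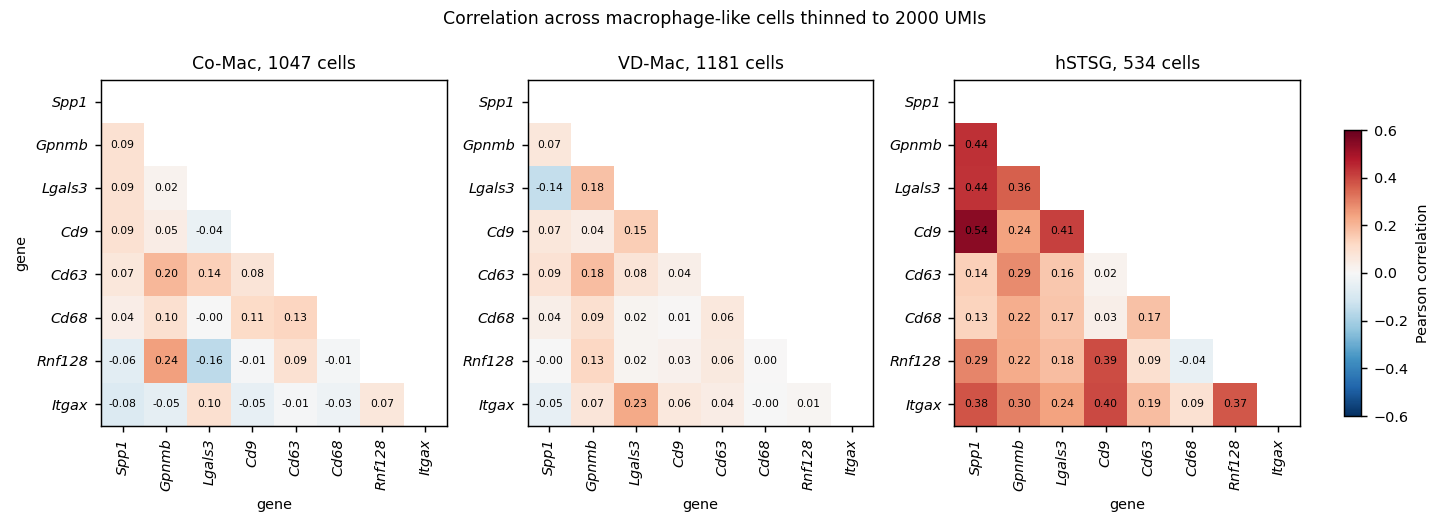
Pearson correlation of each of the 28 pairs of the 8 genes in macrophage-like cells of Co-Mac, VD-Mac and the graft after the draw to 2000 UMIs per cell; each square is 1 pair. The highest graft value is 0.542 (*Spp1* with *Cd9*), and the highest culture values are 0.244 and 0.229.

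Across all genes seen in at least 5% of macrophage-like cells, those most like *Spp1* in the graft were *Fth1*, *Tmsb10*, *Mmp12*, *Psap* and *Cd36*, members aside. With members included *Cd9* ranked 1 for *Spp1*, and *Spp1* ranked 1 for *Gpnmb*. In Co-Mac the genes most like *Spp1* were *Gm5483*, *Trem2*, *Ccl4*, *Ly6c2* and *Cyba*, and in VD-Mac *Chil3*, *Tgm2*, *Esd*, *Ccl3* and *Pdgfa*, with none in common. For *Gpnmb* they were *Fth1*, *Ctsd*, *Ftl1*, *Ctsb* and *Fabp5* in Co-Mac and *Fth1*, *Pf4*, *Wfdc17*, *Ctsd* and *Ccl6* in VD-Mac. In the graft *Gpnmb* went most closely with *Ctsd*, *Lyz2*, *Psap*, *Mfge8* and *Lpl*. *Ctsd*, which encodes a lysosomal protease, was thus among the genes most like *Gpnmb* in each library.

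The VD-Mac and Co-Mac libraries were compared to ask which of the 8 genes moved with VD3. Taken over all kept cells, *Cd68* and *Rnf128* were lower after VD3 and none of the 8 was higher by the rule used, a difference of 2-fold or more for a gene that reached 10 CPM in either culture. The treated library carried the known VD3 response. *Cyp24a1*, which encodes the enzyme that degrades VD3, had 1 UMI in Co-Mac and 36662 in VD-Mac, a log2 ratio of 15.35 (12.87 to 20.65). *Vdr*, the receptor gene, was at 51.1 and 134.7 CPM, a log2 ratio of 1.40.

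Of the 8 members, 2 were called lower and 0 higher, while 4.63% of the 7732 genes tested were called lower and 2.16% higher. *Spp1* was at 520.5 CPM (516.6 to 524.4) in Co-Mac and 585.7 (581.3 to 590.1) in VD-Mac, a log2 ratio of 0.17. With cells limited to under 5% mitochondrial UMIs the *Spp1* ratio was −0.30, so its direction in the whole library depended on that limit. *Gpnmb* was at 117.7 and 159.8 CPM, a ratio of 0.44 (0.41 to 0.47), and *Lgals3* at 4419 and 6151 CPM, 0.48. *Cd9* was at 454 and 391 CPM (log2 ratio −0.22) and *Cd63* at 703 and 523 CPM (−0.43). *Cd68* fell from 110.9 to 49.4 CPM, a log2 ratio of −1.17 (−1.21 to −1.12) or 2.25-fold. *Rnf128* fell from 41.8 to 5.70 CPM, −2.88 (−2.99 to −2.76) or 7.34-fold. *Itgax* was at 146 and 77.8 CPM, −0.91 (−0.94 to −0.87), short of the 2-fold line. The call for *Cd68* was lost when the mean over cells was used (−0.92), when 5 classes alone were used and weighted as in Co-Mac (−0.83) and under the 5% mitochondrial limit (−0.92). Under that limit *Itgax* was past the line, at −1.47. The weighting also left out monocyte-like and unnamed cells, which held 49.5% and 6.77% of the *Cd68* UMIs of Co-Mac, so its effect alone was not separated. *Rnf128* was called lower under every alternative that tested it in the whole library. *Rnf128* was seen in 5.63% of Co-Mac cells and 0.977% of VD-Mac cells (22.0% and 5.01% without the draw), and *Cd68* in 16.6% and 9.34% (47.9% and 29.9%). *Spp1* was seen in 27.0% and 28.1% (48.7% and 44.8%).

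**Figure D3:**
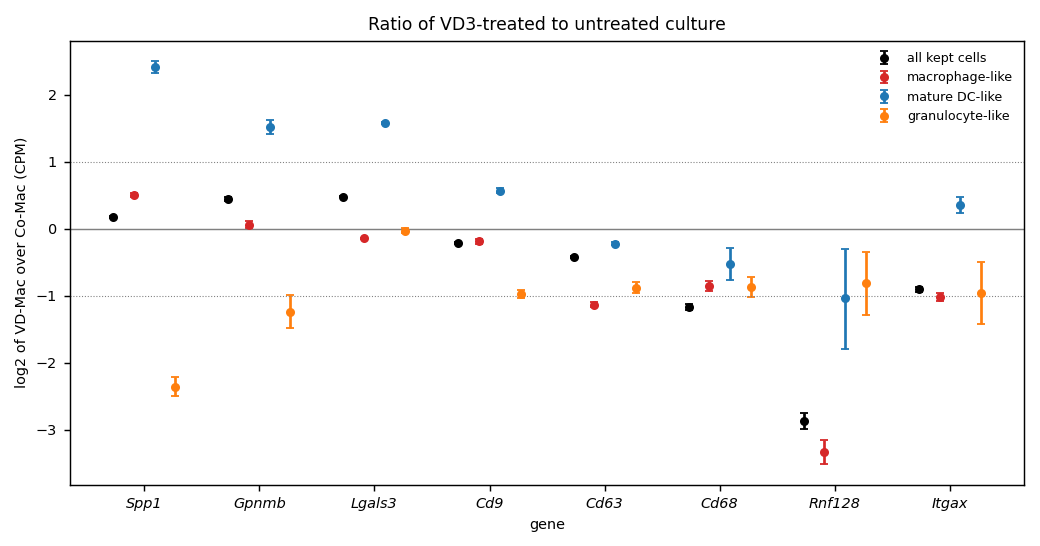
Log2 ratio of CPM in VD-Mac over Co-Mac for each of the 8 genes over all kept cells and in 3 cell classes, with 95% counting intervals as bars. *Rnf128* is at −2.88 over all cells and −3.33 in macrophage-like cells, while *Spp1* runs from −2.36 in granulocyte-like to 2.41 in mature DC-like cells.

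Cells called macrophage-like were compared next, since the name of the gene group points to them. There *Cd63*, *Rnf128* and *Itgax* were lower after VD3, and *Spp1* and *Gpnmb* did not pass the rule. The Co-Mac cells (1047, median 20346 UMIs) lay in culture cluster 7 with 3 VD-Mac cells. The other 1178 of the 1181 VD-Mac cells (median 15161 UMIs) made up cluster 5. Each of these clusters thus came almost wholly from 1 library, and a library and a cell type cannot be told apart there. Cluster 7 was led by *Mmp12* and *Rnf128*.

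Among macrophage-like cells 3 members were called lower and 0 higher, while 6.27% of 7574 genes tested were called lower and 4.94% higher. *Spp1* was at 785 CPM in Co-Mac and 1114 in VD-Mac, a log2 ratio of 0.50 (0.48 to 0.53), and *Gpnmb* at 308 and 321 CPM, 0.06 (0.01 to 0.11). *Lgals3* was at 8389 and 7576 CPM (−0.15) and *Cd9* at 675 and 590.3 CPM (−0.19). *Cd63* fell from 879 to 399 CPM, a log2 ratio of −1.14 (−1.18 to −1.10) or 2.20-fold. *Rnf128* fell from 136 to 13.5 CPM, −3.33 (−3.52 to −3.15) or 10.1-fold. *Itgax* fell from 328 to 161 CPM, −1.03 (−1.09 to −0.97) or 2.04-fold, and *Cd68* was at 209 and 115 CPM, −0.86. Share values moved the same way, from 22.2% to 2.54% for *Rnf128* (68.2% and 15.2% without the draw), 43.9% to 21.9% for *Itgax* (95.5% and 65.0%) and 74.1% to 44.5% for *Cd63*. *Spp1* was seen in 50.2% of Co-Mac and 55.3% of VD-Mac cells, and *Gpnmb* in 26.7% and 24.0%. Mature DC-like cells, the lowest large class for *Rnf128*, showed it in 0.152% of Co-Mac cells after the draw. Without the draw, at a median of 14460 UMIs, the share was 1.48%. No culture class was known to lack the 8 genes.

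With each culture clustered on its own, which was the first way tried, the macrophage-like cells were other cells and several values changed. *Lgals3* was then at a log2 ratio of 0.37 and *Cd9* at 0.20, both opposite in sign to the values above. *Gpnmb* was called higher (1.05), *Rnf128* remained lower (−2.16), and *Cd63* (−0.61) and *Itgax* (−0.52) were no longer called. At a coarser clustering (resolution 0.3) *Cd63* stood at −0.98, also short of a call.

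*Spp1* and *Gpnmb* were carried by other culture cells too. Macrophage-like cells held 26.6% of *Spp1* UMIs in Co-Mac and 32.2% in VD-Mac, 46.1% and 34.1% of *Gpnmb* UMIs, and 57.2% and 40.1% of *Rnf128* UMIs. The monocyte-like cluster 4, with 1510 Co-Mac cells and 1 VD-Mac cell, held 58.6% of the *Spp1* UMIs of Co-Mac, at 817 CPM. In VD-Mac 38.1% of *Spp1* UMIs lay in the unnamed cluster 6, at 993 CPM in 1036 cells and 162 CPM in 135 Co-Mac cells. *Gpnmb* was at 500.5 CPM in the unnamed cluster 9, which it led and which held 345 VD-Mac cells. It was at 403 CPM in the unnamed cluster 10, with 235 Co-Mac cells, so both cultures had a cluster rich in *Gpnmb* outside the named macrophage-like cells.

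In the mature DC-like cells, which served as a class of another kind, *Spp1*, *Gpnmb* and *Lgals3* were higher after VD3. Of 6 members tested 3 were called higher, while 2.3% of 6655 genes were called higher, and 0 members were called lower with 2.46% of genes. These cells lay mainly in cluster 1 for Co-Mac (2637 class cells, median 14460 UMIs) and cluster 0 for VD-Mac (3316, median 13686.5). Library and kind of cell can therefore not be fully told apart here either. *Spp1* rose from 27.6 to 147 CPM, a log2 ratio of 2.41 (2.32 to 2.50) or 5.32-fold, and from 2.35% to 11.5% of cells (15.1% and 31.4% without the draw). *Gpnmb* rose from 24.3 to 69.2 CPM, 1.51 (1.41 to 1.62) or 2.85-fold, and from 3.84% to 6.62% of cells, but stood at 0.99, short of a call, at resolutions 0.3 and 0.8. *Lgals3* rose from 1809 to 5400 CPM, 1.58 (1.57 to 1.59) or 2.99-fold. *Cd9* was at 168 and 249 CPM (0.57), *Cd63* at 837 and 716 (−0.23) and *Itgax* at 25.3 and 32.3 (0.35). *Cd68* (8.14 and 5.65 CPM) and *Rnf128* (1.07 and 0.523 CPM) were under the 10 CPM minimum. The top 10% of these cells held 88.0% of *Spp1* UMIs in Co-Mac and 81.5% in VD-Mac, so the *Spp1* counts sat in few cells. Free RNA and doublets were not told apart from expression here.

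Granulocyte-like cells showed the opposite for *Spp1* and *Gpnmb*, which were both lower after VD3, though the difference between classes was not tested. They formed cluster 2 in both cultures, with 886 Co-Mac cells (median 2805 UMIs, 267 too shallow for the draw) and 1026 VD-Mac cells (2683, 297). Called lower were 2 of 8 members and 2.33% of 7641 genes, and called higher 0 members and 1.66% of genes. *Spp1* fell from 634 to 124 CPM, a log2 ratio of −2.36 (−2.50 to −2.21) or 5.13-fold, and from 22.8% to 7.96% of cells (29.0% and 12.5% without the draw). *Gpnmb* fell from 124 to 52.3 CPM, −1.24 or 2.36-fold, and was seen in 7.27% and 4.66% of cells (8.92% and 6.14% without the draw). The top 10% of Co-Mac cells held 87.9% of the *Spp1* UMIs and 100% of the *Gpnmb* UMIs, so both falls rested on a small part of the cells. The 45 Co-Mac cells of this class with *Gpnmb* had 8444 CPM of *Lgals3* and 1522 of *Spp1*, and the 574 without had 1855 and 345. Whether those 45 cells belonged to another class was not tested. With each culture clustered alone the *Spp1* ratio was −0.08 and was not called. *Lgals3* was at 2532 and 2474 CPM, a difference not detectable at this depth (−0.07 to 0.01). *Cd9* was at 1420 and 722 CPM (−0.98), *Cd63* at 844 and 457 (−0.88) and *Cd68* at 268 and 147 (−0.87). *Rnf128* was at 27.9 and 15.9 CPM (−0.81) and *Itgax* at 30.2 and 15.6 (−0.95), each short of 2-fold here. With 30 components *Cd9* (−1.08), *Cd68* (−1.02) and *Rnf128* (−1.10) were called lower too. With each culture clustered alone *Cd9* (−1.24), *Cd63* (−1.08), *Cd68* (−1.22), *Rnf128* (−1.45) and *Itgax* (−1.10) were.

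The smaller classes gave wider intervals. Among cDC-like cells (79 in Co-Mac, 118 in VD-Mac) *Gpnmb* had 33 and 4 UMIs, a log2 ratio of −3.48 (−5.43 to −1.98). Without the draw the 33 UMIs lay in 2 of the Co-Mac cells (2.53%) and the 4 in 3.39% of the VD-Mac cells, so 2 cells decided that ratio. After the draw *Gpnmb* was seen in 1 of the 79 cells (1.27%) and 0 of the 118 (interval up to 3.08%), a depth at which no difference in share could be seen. Over all genes 526 of 7370 tested were called lower in this class and 666 higher. *Spp1* was at 52.8 and 103 CPM there (0.97). *Lgals3* was at 6553 and 13062 CPM (1.99-fold, not called), *Cd9* at 885 and 479 (−0.88) and *Cd63* at 61.6 and 96.0 (0.64), and *Rnf128* had 0 UMIs in both. Among mast cell or basophil-like cells (66 and 85), a cluster that also scored for B cells, *Lgals3* rose from 637 to 1543 CPM, 2.42-fold. *Gpnmb* had 0 and 19 UMIs in this class, the latter in 7.06% of the VD-Mac cells without the draw. It was also called higher, by a level of 26.1 CPM in VD-Mac set against a count of 0. After the draw *Gpnmb* was seen in 0 of 55 Co-Mac cells (interval up to 6.49%) and 2 of 69 VD-Mac cells. At that depth no difference in share could be seen. Over all genes 735 of 8140 tested were called higher there. The top 10% of the VD-Mac cells held 70.6% of those *Lgals3* UMIs, and cells with a *Lgals3* UMI went from 59.1% to 62.4% without the draw.

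Genes related to the members were set beside them as lists, chosen like the members with earlier results of these libraries known. Over all kept cells 4.63% of the 7732 genes tested were lower and 2.16% higher. Of 7 tested receptors of osteopontin and Gpnmb 1 was lower, *Cd44* (217 to 73.0 CPM, log2 −1.57), and the list median was −0.43. The 4 secreted phosphoproteins related to *Spp1* did not reach 10 CPM. Among 14 other tetraspanins tested *Cd53* (−1.47), *Cd81* (−1.11) and *Tspan14* (−1.06) were lower, with a median of −0.32. Among 4 other galectins *Lgals1* was lower (−1.18; median −0.50). Of 4 other leukocyte integrin chains *Itgb7* was higher (18.4 to 52.2 CPM), and *Itgal* (−1.33) and *Itgam* (−1.92) were lower (median −0.90). None of 6 relatives and regulators of *Rnf128* was called, and their median was 0.01 beside the −2.88 of *Rnf128* itself. Of 9 other lysosomal membrane genes *Scarb2* was higher (1.23; median 0.19), while *Cd68* fell. Of 4 MiT-TFE transcription factor genes *Tfec* was lower (−1.50; median −0.45). Among 20 lipid-associated macrophage genes *Trem2* was higher (157 to 343 CPM, 1.13), and *Apoe* (−1.53), *Lpl* (−1.75), *Fabp5* (−1.01), *Lipa* (−1.22), *Cd36* (−1.56) and *Mmp12* (−4.16) were lower, with a median of −0.25. The median of all 7732 genes was −0.10.

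Within macrophage-like cells 6.27% of all genes tested were lower and 4.94% higher. Lower were 2 of 7 receptors, 3 of 12 tetraspanins, 1 of 4 galectins, 2 of 4 integrin chains, 1 of 4 MiT-TFE genes and 5 of 21 lipid-associated genes. Higher were 2 tetraspanins and 1 each of the integrin chains, the 6 *Rnf128* relatives, the 10 lysosomal genes and the lipid-associated genes. The list genes called lower beside *Cd63*, *Rnf128* and *Itgax* were *Cd44* (−1.83), *Itga4* (−1.08), *Cd53* (−1.37), *Tspan14* (−1.41), *Tspan17* (−1.55) and *Lgals1* (−2.07). *Itgal* (−1.14), *Itgam* (−2.14), *Tfec* (−1.16), *Lpl* (−1.56), *Fabp5* (−2.54), *Lipa* (−1.38), *Cd36* (−2.62) and *Mmp12* (−4.23) were lower as well. Called higher were *Cd37* (1.15), *Cd82* (1.00), *Itgb7* (2.09), *Rnf167* (1.49), *Scarb2* (1.82) and *Trem2* (277 to 790.3 CPM, 1.51). In mature DC-like cells 2.46% of all genes were lower and 2.3% higher, against 1 lower of 5 receptors, 2 lower of 9 tetraspanins, 1 higher of 8 lysosomal genes, and 2 lower and 1 higher of 19 lipid-associated genes. These cells had *Cd164* (1.27) and *Trem2* (1.54) higher beside *Spp1*, *Gpnmb* and *Lgals3*, and *Cd44* (−1.24), *Cd53* (−1.25), *Cd81* (−1.88), *Fabp5* (−1.38) and *Mmp12* (−2.56) lower. In granulocyte-like cells 2.33% of all genes were lower and 1.66% higher, against 1 lower of 6 receptors, 1 lower of 4 galectins, 1 higher of 4 integrin chains and 7 lower of 19 lipid-associated genes. There *Itgb7* was higher (2.03), and *Itgb5* (−1.35), *Lgals1* (−2.29), *Trem2* (−1.04), *Apoe* (−2.39), *Lpl* (−1.59), *Plin2* (−1.30), *Mmp12* (−4.25) and *Syngr1* (−2.69) were among those lower. *Mmp12* was thus lower in each of these 3 classes, though its levels in Co-Mac were far apart. They were 5076 CPM in macrophage-like, 376 in granulocyte-like and 32.6 in mature DC-like cells. Free RNA was not told apart from expression, so the 3 classes are not separate evidence.

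The promoters of the members were searched because *Rnf128*, *Cd68*, *Cd63* and *Itgax* were called lower over all kept cells or in macrophage-like cells. *Spp1* was called in opposite directions in mature DC-like and granulocyte-like cells. Sequence was taken from the RefSeq annotation of GRCm38.p6 as the 250 bases before each start, and all 8 members had an entry, *Spp1* with 2. A search on both strands for 8 motifs found TGANTCA, the form bound by AP-1 factors, 2 times in *Cd68* and 1 time in *Itgax*. TGANTCA was picked after the promoters had been read, and the window was shortened after a match in *Gpnmb* had been seen beyond it. Which members hold a match thus follows these choices in part, and is no evidence about the genes called lower. TGANTCA occurred in 6.75% of all promoters (2217 of 32851) and was not found in the searched windows of *Rnf128* and *Cd63*. The RefSeq starts of *Rnf128*, *Cd63* and *Lgals3* lie inside the gene positions given above, and the outer starts of these 3 genes were not searched. GAGGAAGT, a form bound by PU.1, was found 1 time in *Spp1* and in 2.44% of promoters. CATGTG was found in *Cd9* (12.3% of promoters) and GGGTCA in *Rnf128* (11.6%). The forms CACGTG (6.02%), AGGTCA (14.0%), GGTTCA (8.85%) and AGTTCA (11.8%) were found in none of the searched windows of the members. Sequence beyond these 250 bases was not searched, so sites farther from the starts are not excluded. A match describes the sequence and was not tested for binding. Printed below are only the promoters with a match to TGANTCA or GAGGAAGT, so *Rnf128* and *Cd63* are not among them. The *Cd68* promoter at chr11:69666171-69666420 (minus strand), the *Itgax* promoter at chr7:128129300-128129549 (plus strand) and the *Spp1* promoter at chr5:104434861-104435110 (plus strand), with matches in capitals, read as follows.
Cd68: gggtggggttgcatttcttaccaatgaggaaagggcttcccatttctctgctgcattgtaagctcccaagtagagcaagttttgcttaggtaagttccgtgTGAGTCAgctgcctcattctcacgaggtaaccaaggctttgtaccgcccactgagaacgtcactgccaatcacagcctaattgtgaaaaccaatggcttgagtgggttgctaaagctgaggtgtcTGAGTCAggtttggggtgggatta
Itgax: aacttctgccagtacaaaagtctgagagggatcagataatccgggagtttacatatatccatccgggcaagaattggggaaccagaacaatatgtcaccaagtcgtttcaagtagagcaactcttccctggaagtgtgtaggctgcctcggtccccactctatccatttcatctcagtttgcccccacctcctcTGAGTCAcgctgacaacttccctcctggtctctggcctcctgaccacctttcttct
Spp1: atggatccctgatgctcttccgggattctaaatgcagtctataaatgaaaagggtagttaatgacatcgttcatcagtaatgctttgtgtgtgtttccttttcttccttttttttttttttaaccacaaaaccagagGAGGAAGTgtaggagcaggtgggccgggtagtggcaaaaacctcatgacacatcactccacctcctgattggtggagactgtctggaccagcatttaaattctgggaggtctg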

How the data were processed

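The counts are the UMI tables the authors deposited, made with Cell Ranger 3.1.0, read as raw counts of 31053 mouse genes per barcode. Sources of the study name different genome builds, so positions were taken by Ensembl identifier from GENCODE on GRCm38. Hashtag features were left out. Barcodes with at least 300 genes, under 100000 gene UMIs and under 10% mitochondrial UMIs were kept.

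Levels are pooled CPM with exact Poisson intervals. Shares used cells thinned to 2000 UMIs, with Clopper-Pearson intervals, and ratios used the conditional binomial. A gene was called higher or lower at 2-fold when it reached 10 CPM in either culture. Clusters came from Seurat 5.3.0 in R 4.3.3 (log values per 10000 UMIs, 2000 variable genes without members and list genes, 15 components, 15 neighbours, resolution 0.5), the cultures together and the graft alone. Classes were named from marker genes at a score of at least 0.5 with 3 markers. Joint clustering of the cultures was chosen after separate clustering had given classes that did not match. Naming conditions, motifs and limits for correlations were settled with results in view. Python 3.11.15, numpy 2.4.6, scipy 1.17.1, pandas 2.3.3, scanpy 1.11.5 and matplotlib 3.10.9 did the rest.

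Genes named in the text are the members, *Cyp24a1* and *Vdr*, genes from among the list genes past the call rule and the 5 genes most like *Spp1* and *Gpnmb* in each library. Marker genes that lead a cluster are named as such. Members and lists (receptors, secreted phosphoproteins, tetraspanins, galectins, integrin chains, *Rnf128* relatives, lysosomal membrane genes, MiT-TFE factors and lipid-associated genes) were chosen with earlier results of these data known.

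Limits: 1 library stood for each condition, so library and treatment cannot be told apart. Culture clusters often came from 1 library. Free RNA was not removed. Doublets were left in, as a score-based caller found 1 in Co-Mac, 0 in VD-Mac and 8 in the graft against 6.29%, 7.84% and 2.12% expected, and leaving out the 457, 691 and 45 highest-scoring cells was an alternative. In a self-test 200 of 7429 genes were changed 4-fold by computation, 100 up and 100 down, and all were called with 0 of the unchanged genes. Its counts came from 1 shared profile with counting error only, and 4-fold lies well past the 2-fold rule. It therefore checks the computation and cannot show how reliable the calls are with 1 library per condition.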

Additional observations from a re-analysis of the deposited data

Results flagged for a closer look

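*Spp1*, *Gpnmb*, *Cd9* and *Cd63* are given here because their log2 ratios of VD-Mac over Co-Mac had opposite signs in different cell classes, each at least 0.5 from 0. For *Spp1* the ratio was 0.50 in macrophage-like cells, 2.41 in mature DC-like cells and 0.97 in cDC-like cells, but −2.36 in granulocyte-like cells. That last value was −0.08 with each culture clustered alone, under the limit of 0.5. *Gpnmb* had 1.51 in mature DC-like cells, −1.24 in granulocyte-like cells and −3.48 in cDC-like cells, where 2 of 79 Co-Mac cells held all 33 UMIs. *Cd9* had 0.57 in mature DC-like cells, −0.98 in granulocyte-like cells and −0.88 in cDC-like cells. *Cd63* had −1.14 in macrophage-like cells, −0.88 in granulocyte-like cells and 0.64 in cDC-like cells. In the cDC-like cells the top 10% of cells held 80% of the 70 *Cd63* UMIs of Co-Mac. In VD-Mac they held 87.1% of 147 UMIs, so the opposite sign of *Cd63* rested on few cells. With 1 library per condition these differences between classes were not tested.

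Barcodes left out by the filters also held transcripts of the members, above the limit that a count of 0 allows. The left-out barcodes numbered 609 in Co-Mac, 969 in VD-Mac and 500 in the graft. *Spp1* was at 381 CPM in those of Co-Mac, 711 in VD-Mac and 16157 in the graft, and *Gpnmb* at 369, 391 and 1727 CPM. *Lgals3* was at 3165, 5711 and 2227 CPM, *Cd9* at 358, 378 and 304, and *Cd63* at 728, 434 and 814. *Cd68* was at 73.0, 53.3 and 273 CPM, *Rnf128* at 64.0, 11.4 and 65.2, and *Itgax* at 131, 105.0 and 94.8. The graft also held 1195935 hashtag UMIs, which no comparison used. How these values differ from those of kept cells was not tested.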

How the results depend on the processing

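Of 466 values for single genes or gene pairs under the alternatives, 321 stayed within their limits, 142 moved and 3 turned direction. Changing the CPM minimum to 1 or 50 alters which genes are tested and cannot move a log2 ratio. A minimum of 300 UMIs in place of 300 genes left the counts of calls over all kept cells at 167 higher and 358 lower. Over all kept cells 37 of 72 ratios stayed, 34 moved and 1 turned, with these settings counted. The 321 therefore include values fixed by construction and overstate how stable the ratios were. For a correlation the limit was a difference of 0.1. *Spp1* over all kept cells was at a log2 ratio of −0.30 with under 5% mitochondrial UMIs. With each culture clustered alone, *Lgals3* was at 0.37 and *Cd9* at 0.20 in macrophage-like cells. The cause of these turns was not tested.

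The count of members lower over all kept cells was 1 with the mean over cells (3.24% of all genes tested), 1 with the class shares of Co-Mac (3.30%) and 1 with a 50 CPM minimum (4.95%). Under the last, *Rnf128* was not tested, by construction; the class shares also left out cells outside 5 classes, and the cause was otherwise not tested. In macrophage-like cells of cultures clustered alone 1 member was higher (3.70% of genes) and 1 lower (9.28%). In granulocyte-like cells 5 were lower with 30 components (2.48% of genes) and 6 with cultures clustered alone (2.26%), and the cause was not tested. The median correlation in graft macrophage-like cells was 0.38 without the draw, where cells differ in depth. Scaling by the median of ratios shifted log2 ratios by 0.08.

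Clustering each culture alone was tried first and then kept as an alternative, with its results known. Joint clustering, the main setting, was chosen after the classes of separate clustering had been seen. All alternatives within mature DC-like and granulocyte-like cells were also chosen after seeing the data. The 5 classes weighted by their Co-Mac shares held 65.0% of Co-Mac and 64.9% of VD-Mac cells.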
